A study of Mus musculus with 9 samples.

Results

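The genes described here encode ion channels that open with membrane voltage, together with their close relatives and auxiliary subunits. They were chosen by name: a probe set was taken when the platform annotation gave it exactly 1 gene symbol and that symbol began with Kcn (potassium), Hcn and a digit (hyperpolarization-activated cation), Scn and a digit (sodium), Cacn (calcium) or Clcn (chloride). This gave 68 genes measured by 88 probe sets, out of 8251 genes measured by 12422 probe sets that were not Affymetrix controls. Where a gene had several probe sets, the one with the highest mean over the 9 arrays stood for it. The potassium family held 42 genes, the HCN family 2, the sodium family 6, the calcium family 12 and the chloride family 6.

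The study set the forebrain expression profiles of 2 antipsychotic drugs beside each other and beside that of untreated mice, with 3 Affymetrix U74Av2 arrays per treatment and the RNA of 1 animal on each array. The clozapine group received clozapine, an atypical antipsychotic, at 12 mg/kg/day, and the haloperidol group received haloperidol, a typical antipsychotic that blocks dopamine D2-type receptors, at 1.6 mg/kg/day, so the doses of the compared drugs differ. The control group received no drug. All 9 animals were male C57BL mice with a labelled age of 4 weeks, kept singly, and the drugs were dissolved in the drinking water for 4 weeks after an acclimatisation of 2 weeks. The source names and sample descriptions give the right side of the brain and the tissue entry gives the left, and the side was therefore not settled. Values are the deposited log2 values. The 3 arrays per group limit the precision, and RNA from whole tissue cannot tell fewer cells of a type from less RNA per cell.

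Voltage-gated sodium channels carry the upstroke of the action potential, potassium channels bring the membrane back to rest and set how often a neuron fires, and calcium channels couple the spike to transmitter release and to signalling inside the cell. HCN channels pass a depolarizing current after hyperpolarization and help to set rhythmic firing. Inward rectifier and tandem-pore potassium channels hold the resting potential, and the Clcn proteins are chloride channels of the cell surface or chloride and proton exchangers of endosomes and lysosomes.

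The array-wide picture set what could be seen. The median log2 value of an array was between 4.02 and 4.21. All 8 neuron markers were above the filter described next, with averages from 6.81 to 13.04, as were all 6 astrocyte markers, and 1 of 4 skeletal muscle markers was. The excess of 3′ over 5′ signal on the Actb and Gapdh control probe sets, a measure of RNA integrity, was 0.89, 1.13 and 1.14 in the clozapine arrays, 1.30, 0.87 and 0.81 in the haloperidol arrays and 0.88, 1.46 and 1.73 in the control arrays, so that control 3 had the widest gap of the 9 arrays. Control 3 also had the lowest mean of the neuron markers, at 9.18 against 9.59 to 10.16 in the other arrays. Map2 and Syt1 stood out there, at 4.66 and 8.57 against next lowest values of 6.09 and 9.68. Nefm, Snap25 and Tubb3 were also lowest in control 3, Tubb3 by a narrow margin. Eno2, Nefl and Stmn2 had their lowest values in other arrays, so the low mean does not hold for every marker. For Nefl, clozapine 3 and control 3 were nearly equal, at 9.01 in each. Haloperidol 3 carried pituitary hormone transcripts, with growth hormone (Gh) at 12.57 against 1.07 to 1.28 in the other 8 arrays. Values without these arrays are given beside several of the genes that they moved. Endings such as _r_at, _s_at, _f_at and _g_at mark probe sets that did not meet all of the maker's usual design rules, some of them with probes shared between transcripts.

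A probe set was tested when its 9-array average exceeded the 40th percentile of all probe sets, a log2 value of 3.448. Of the 68 channel genes, 40 passed this filter and 28 did not, which is 58.8% against 68.5% of all genes on the array. In the potassium family 24 of 42 genes passed, in the HCN family 1 of 2, in the sodium family 2 of 6, in the calcium family 8 of 12 and in the chloride family 5 of 6. The genes nearest to the filter were Kcnj12, at an average of 3.45 just above it, and Cacna1a, at 3.37 just below it. The filter is a statement about probe set brightness and does not show that a gene is silent: Cacna1a encodes the pore of the P/Q-type channel that drives transmitter release at most forebrain synapses.

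No channel gene passed the adjusted test in any contrast. In limma's moderated test with Benjamini-Hochberg adjustment over 7453 probe sets, 0 of 40 channel genes passed 0.05 in clozapine minus control, where 0% of all tested probe sets did, and the same was true of haloperidol minus control (0% of all) and of clozapine minus haloperidol (0% of all). At an unadjusted p under 0.05, 0 of 40 channel genes differed between clozapine and control, with a background of 0.939% (0.443% higher and 0.496% lower in clozapine). Between haloperidol and control 1 of 40 did, Clcn1, which was lower, with a background of 9.12% (2.05% higher and 7.07% lower in haloperidol). Between clozapine and haloperidol 1 of 40 did, again Clcn1, which was higher, with a background of 3.64% (2.98% higher and 0.657% lower in clozapine). It stayed under 0.05 in 11 of 20 alternatives, against 18 of 20 for haloperidol minus control. In that contrast it did not with the 3′ to 5′ gap as a covariate, nor without control 3 and haloperidol 3. These counts use the arrays by which Clcn1 was picked, so they are no separate support. The moderated F test over the 3 groups gave 1 channel gene at an unadjusted p under 0.05, Clcn1, with a background of 3.37%, and 0 after adjustment (0% of all). Both drug contrasts use the same 3 control arrays.

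Counts of genes whose arrays did not overlap between groups stayed near those of the whole array. The 3 clozapine arrays lay below the 3 control arrays for 1 of 40 channel genes (Kcnk2) and above them for 0, where 2.16% and 1.27% of all tested probe sets did so (3.43% in either direction). For haloperidol against control the counts were 8 lower (Cacna1c, Cacna1e, Cacna2d3, Cacng1, Clcn1, Kcnj12, Kcnj3 and Kcnj8) and 0 higher, with backgrounds of 19.4% lower and 2.29% higher (21.7% in either direction). For clozapine against haloperidol they were 6 higher (Cacna1e, Clcn1, Kcnh2, Kcnj8, Kcnn1 and Kcns1) and 0 lower, with backgrounds of 15.2% higher and 1.96% lower (17.1% in either direction). Across the whole array, as among the channel genes, the haloperidol arrays lay below the others more often than above them on the deposited scale. This direction depends on the scale: with each array centred on its own median, 30 of 40 channel genes were above 0 in haloperidol minus control in place of 16, and 7 of 40 in clozapine minus haloperidol in place of 25.

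**Figure D1:**
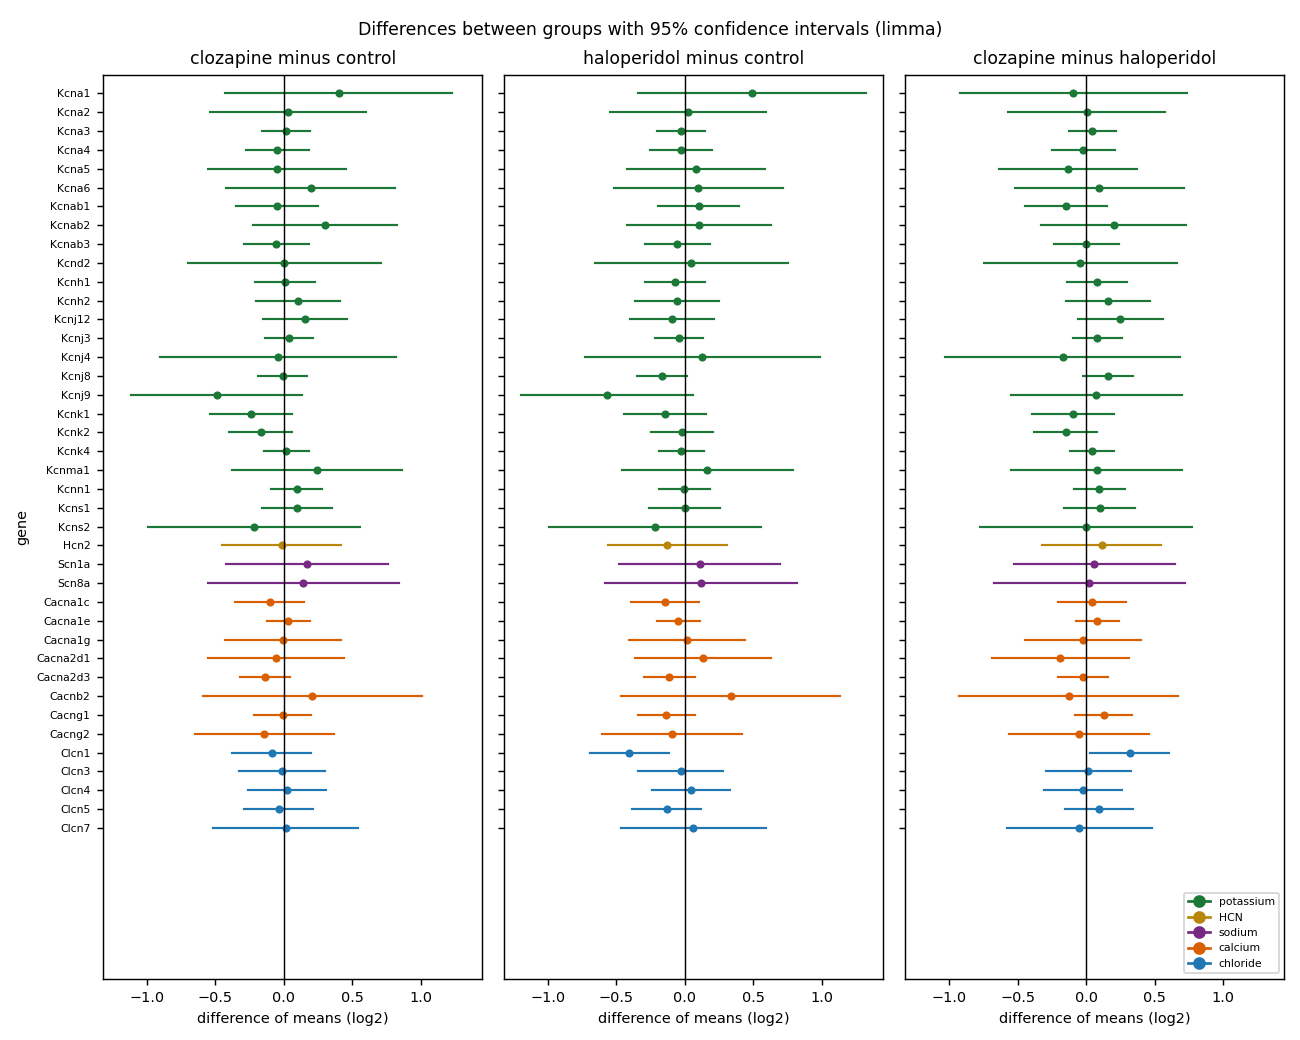
Difference of group means in log2 units (x axis) for the 40 channel genes past the filter (y axis), coloured by family, with 1 panel for each contrast: each drug minus control, and clozapine minus haloperidol. Points are differences and bars are 95% confidence intervals from limma, unadjusted. All intervals cross 0 except those of Clcn1 in haloperidol minus control and in clozapine minus haloperidol.

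The families were compared by their counts and medians. Clozapine minus control had a median difference of -0.0031 over the 40 channel genes, with 20 above 0, beside -0.0013 and 49.5% above 0 over all tested probe sets. The potassium family had a median of 0.01 (14 of 24 above 0), the sodium family 0.16 (2 of 2), the calcium family -0.03 (2 of 8) and the chloride family -0.01 (2 of 5), and Hcn2 alone stood for the HCN family at -0.02. The sodium median rests on 2 genes and was 0.09 without control 3.

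Haloperidol minus control had a channel median of -0.03, with 16 of 40 above 0, beside -0.02 and 46.4% over all tested probe sets. The potassium median was -0.02 (9 of 24 above 0), the sodium median 0.11 (2 of 2), the calcium median -0.07 (3 of 8), the chloride median -0.03 (2 of 5) and Hcn2 -0.13. Clozapine minus haloperidol had a channel median of 0.03, with 25 of 40 above 0, beside 0.03 and 56.4% over all. There the potassium median was 0.04 (16 of 24 above 0), the sodium median 0.04 (2 of 2), the calcium median -0.02 (3 of 8), the chloride median 0.02 (3 of 5) and Hcn2 0.11. The signs of several of these medians turned when each array was centred on its own median, a scaling under which the median of all tested probe sets in haloperidol minus control was 0.08 in place of -0.02. In haloperidol minus control, centring gave 0.08 for potassium, 0.03 for calcium and 0.07 for chloride. In clozapine minus haloperidol, it gave -0.05 for potassium, -0.06 for sodium and -0.08 for chloride. No direction is therefore given for a family.

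**Figure D2:**
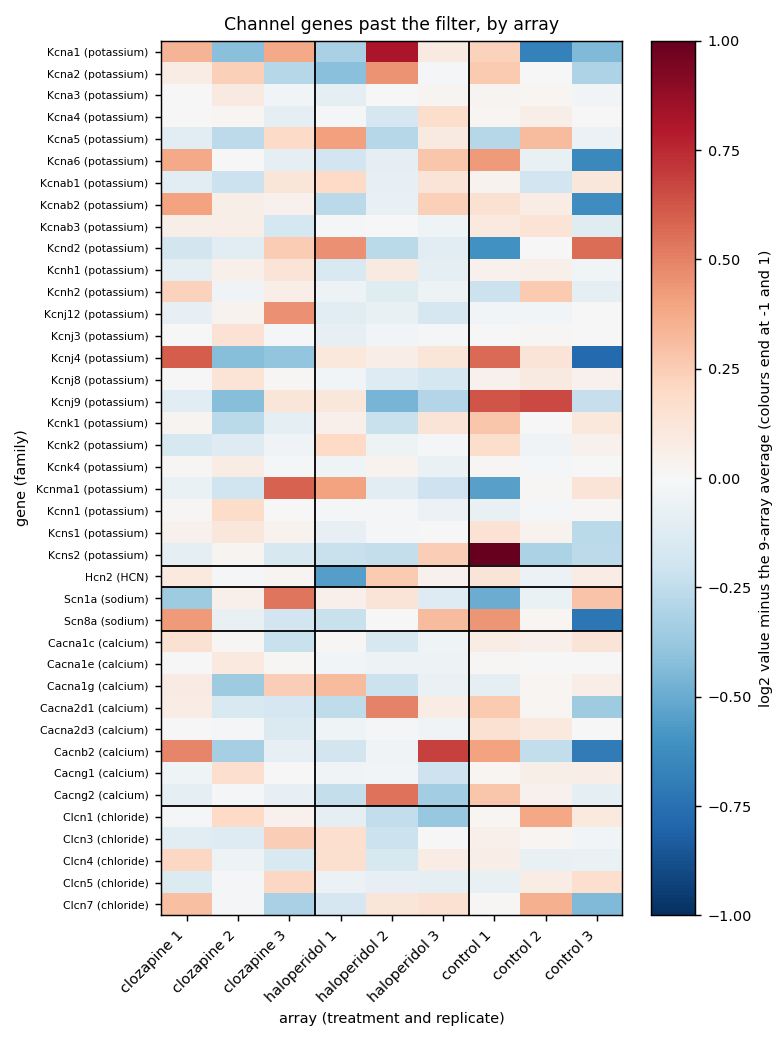
Deviation of each array (x axis, treatment and replicate) from the gene's own 9-array average in log2 units (colour, ends at -1 and 1) for the 40 channel genes past the filter (y axis), grouped by family. Control 3 is the lowest array for 8 genes, among them Cacnb2, Kcnj4 and Scn8a, and no family with several genes has them all on 1 side of its averages in the 3 arrays of a treatment.

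Among the voltage-gated potassium channels, 11 of 16 pore subunit genes were past the filter and all 3 beta subunit genes were. Kcna1, a low-threshold channel of axons whose loss causes seizures in mice, had log2 values of 7.99, 7.23 and 8.03 in the clozapine arrays, 7.32, 8.47 and 7.74 in the haloperidol arrays and 7.88, 6.97 and 7.20 in the control arrays. The groups overlapped, with haloperidol 2 the highest array and control 2 the lowest. The difference was 0.40 ± 0.36 for clozapine minus control and 0.49 ± 0.36 for haloperidol minus control, the largest positive differences in these contrasts among the probe sets that stand for the channel genes, with adjusted p-values of 1.0 and 0.695 by limma. Leaving out 1 array moved the first between 0.21 (without control 2) and 0.66 (without control 1), and the second between 0.18 (without haloperidol 2) and 0.75 (without control 1). Here and in what follows a value after ± is a standard error, and where a gene has 2 differences the first is clozapine minus control and the second haloperidol minus control. Its partner Kcna2 differed by 0.03 ± 0.25 and 0.02 ± 0.25. Kcna6 differed by 0.20 ± 0.27 and 0.10 ± 0.27, and without control 3 by -0.08 and -0.17.

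Kcna3, Kcna4 and Kcna5, further members of the same subfamily, had differences between -0.05 and 0.08 in both drug contrasts. Kcnd2, a pore subunit of the fast transient current in dendrites, had values of 8.54, 8.61 and 8.98 in the clozapine arrays, 9.18, 8.46 and 8.62 in the haloperidol arrays and 8.12, 8.73 and 9.28 in the control arrays, and its differences were 0.0021 ± 0.31 for clozapine minus control and 0.04 ± 0.31 for haloperidol minus control. On this probe set, 99339_r_at, the control arrays alone spanned the whole range, with control 1 lowest and control 3 highest. By its ending it did not meet all of the maker's usual design rules. A second Kcnd2 probe set, 98364_at, placed control 3 lowest, at 5.93, with 7.14 and 7.01 in the other control arrays. The probe sets of this gene therefore ordered the control arrays in opposite ways.

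Kcnab2, a beta subunit that binds Kcna channels, had values of 10.71, 10.36 and 10.34 in the clozapine arrays, 10.03, 10.23 and 10.54 in the haloperidol arrays and 10.45, 10.37 and 9.68 in the control arrays. Control 3 was the lowest array, and the groups overlapped. Clozapine minus control was 0.30 ± 0.23, and it was 0.06 without control 3. The second probe set of Kcnab2, 162182_f_at, gave -0.16 ± 0.17 for the same contrast. Kcnab1, the related subunit, differed by -0.05 ± 0.13 in clozapine minus control, 0.10 ± 0.13 in haloperidol minus control and -0.15 ± 0.13 in clozapine minus haloperidol. The second Kcnab1 probe set, 162087_f_at, had the opposite sign in haloperidol minus control, at -0.20, and in clozapine minus haloperidol, at 0.20. Kcnab3 differed by -0.05 ± 0.10 and -0.06 ± 0.10.

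Kcnh2, the channel that haloperidol is known to block in heart, had values of 5.17, 4.91 and 5.01 in the clozapine arrays, 4.89, 4.82 and 4.89 in the haloperidol arrays and 4.73, 5.21 and 4.85 in the control arrays. The clozapine arrays all lay above the haloperidol arrays, by 0.16 ± 0.13, and the control arrays spanned both groups. Haloperidol minus control was -0.06 ± 0.13. The relative Kcnh1 differed by -0.07 ± 0.10 in the same contrast. The silent subunits Kcns1 and Kcns2, which alter other channels and form none alone, were close to the filter. For Kcns2, control 1 stood at 4.55 against 3.22 to 3.77 in the other 8 arrays, and its clozapine minus control difference of -0.22 ± 0.34 was 0.21 without that array.

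Inward rectifier genes were represented by 5 of 11 past the filter. Kcnj9, a subunit of the G-protein-gated channels through which dopamine, serotonin and acetylcholine receptors inhibit neurons, had values of 9.22, 8.90 and 9.45 in the clozapine arrays, 9.44, 8.86 and 9.03 in the haloperidol arrays and 9.95, 9.99 and 9.09 in the control arrays. These values come from probe set 161799_r_at, which by its ending did not meet all of the maker's usual design rules. Control 1 and control 2 were above every drug-treated array, and control 3 was among them. The differences were -0.49 ± 0.27 for clozapine minus control and -0.57 ± 0.27 for haloperidol minus control, the lowest in each contrast among the probe sets that stand for the channel genes, with adjusted p-values of 1.0 and 0.542 by limma. Without control 3 they were -0.78 and -0.86.

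The second Kcnj9 probe set, 98332_at, did not show this. It had values of 7.20, 6.28 and 6.44 in the clozapine arrays, 6.65, 6.54 and 6.93 in the haloperidol arrays and 7.29, 6.56 and 5.72 in the control arrays, and its differences were 0.11 ± 0.39 and 0.18 ± 0.39. On that probe set control 1 was the highest array and control 3 the lowest, so the 2 probe sets disagreed in sign in both drug contrasts. Kcnj3, which forms the main subunit of the same G-protein-gated channels, had values of 4.82, 4.96 and 4.80 in the clozapine arrays, 4.73, 4.79 and 4.80 in the haloperidol arrays and 4.82, 4.83 and 4.81 in the control arrays, with differences of 0.04 ± 0.08 and -0.05 ± 0.08.

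Kcnj8, the pore of an ATP-sensitive channel best known in vascular muscle and pericytes, had values of 4.03, 4.17 and 4.04 in the clozapine arrays, 4.01, 3.90 and 3.86 in the haloperidol arrays and 4.08, 4.12 and 4.08 in the control arrays. All 3 haloperidol arrays were below all arrays of the other groups, by small amounts. Haloperidol minus control was -0.17 ± 0.08 (adjusted p = 0.54 by limma), and clozapine minus haloperidol was 0.16 ± 0.08 (adjusted p = 0.915). Kcnj12, a strong inward rectifier, lay close to the filter, and its clozapine minus control difference of 0.16 ± 0.13 was -0.0048 without clozapine 3. Kcnj4, another strong inward rectifier of forebrain neurons, varied widely, with values of 7.79, 6.76 and 6.78 in the clozapine arrays, 7.29, 7.25 and 7.30 in the haloperidol arrays and 7.75, 7.31 and 6.40 in the control arrays and differences of -0.04 ± 0.37 and 0.13 ± 0.37, which were -0.42 and -0.25 without control 3.

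The tandem-pore genes carry background potassium currents, and 3 of 5 were past the filter. Kcnk2, a mechanosensitive and anaesthetic-sensitive channel, had values of 8.41, 8.45 and 8.54 in the clozapine arrays, 8.77, 8.52 and 8.55 in the haloperidol arrays and 8.75, 8.54 and 8.62 in the control arrays. Its clozapine arrays were all below its control arrays by a narrow margin, while haloperidol 1 was the highest of all 9. The difference was -0.17 ± 0.10 for clozapine minus control, -0.02 ± 0.10 for haloperidol minus control and -0.15 ± 0.10 for clozapine minus haloperidol.

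Kcnk1, a weak inward rectifier abundant in astrocytes and neurons, had values of 8.18, 7.88 and 8.05 in the clozapine arrays, 8.20, 7.92 and 8.28 in the haloperidol arrays and 8.42, 8.16 and 8.25 in the control arrays. The groups overlapped, and clozapine minus control was -0.24 ± 0.13, the lowest unadjusted p in that contrast among the probe sets that stand for the channel genes, with an adjusted p of 1.0 by limma. Kcnk4 differed by 0.02 ± 0.07 and -0.03 ± 0.07. Of the calcium-activated channels, Kcnma1, the large-conductance channel, had values of 9.65, 9.52 and 10.31 in the clozapine arrays, 10.12, 9.61 and 9.51 in the haloperidol arrays and 9.18, 9.73 and 9.85 in the control arrays, and its differences were 0.24 ± 0.27 and 0.16 ± 0.27. Kcnn1, a small-conductance channel close to the filter, differed by 0.09 ± 0.08 and -0.0046 ± 0.08.

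**Figure D3:**
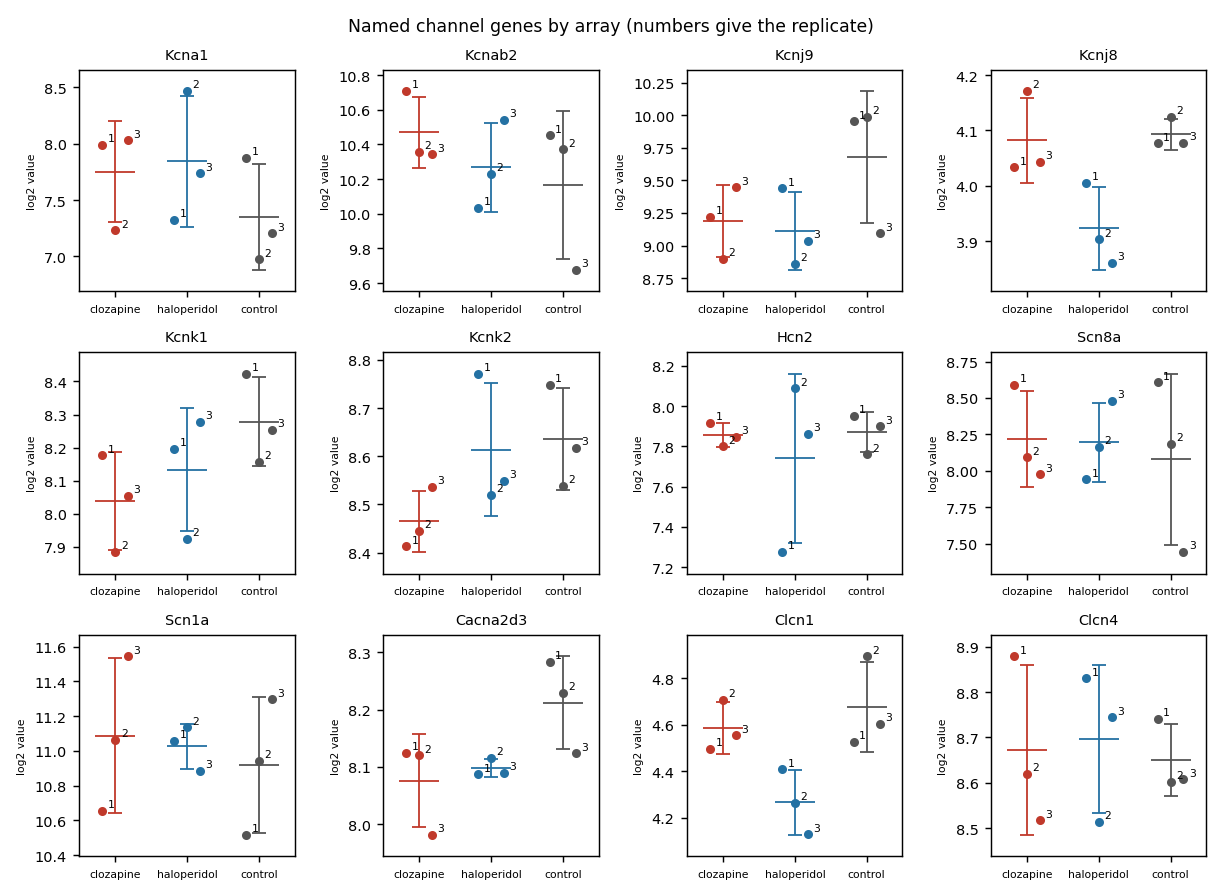
Log2 values by array (points, numbered by replicate) for 12 named channel genes in the clozapine, haloperidol and control groups, with the group mean (long bar) and SD (short bars, n = 3), each panel on its own scale. The clozapine and haloperidol arrays of Kcnj9 all lie below control 1 and control 2, and control 3 lies among them. The 3 haloperidol arrays of Clcn1 lie below all other arrays.

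Hcn2, the HCN subunit of thalamic and many other neurons, had values of 7.92, 7.80 and 7.85 in the clozapine arrays, 7.27, 8.09 and 7.86 in the haloperidol arrays and 7.95, 7.76 and 7.90 in the control arrays. Haloperidol 1 stood apart as the lowest and haloperidol 2 was the highest. Haloperidol minus control was -0.13 ± 0.19, and it was 0.10 without haloperidol 1. Of the sodium channel genes, Scn1a, the alpha subunit on which fast-spiking inhibitory neurons depend, had values of 10.65, 11.06 and 11.55 in the clozapine arrays, 11.06, 11.14 and 10.88 in the haloperidol arrays and 10.52, 10.94 and 11.30 in the control arrays. Its differences were 0.17 ± 0.26 for clozapine minus control and 0.11 ± 0.26 for haloperidol minus control, and its second probe set, 94201_at, gave 0.19 ± 0.25 and 0.12 ± 0.25. The intervals of the first probe set ran from -0.42 to 0.76 and from -0.48 to 0.70.

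Scn8a, the alpha subunit of nodes of Ranvier and axon initial segments, had values of 8.59, 8.09 and 7.97 in the clozapine arrays, 7.94, 8.17 and 8.48 in the haloperidol arrays and 8.61, 8.18 and 7.44 in the control arrays. Control 3 was again the lowest array. Clozapine minus control was 0.14 ± 0.30 and haloperidol minus control 0.12 ± 0.30, and without control 3 they were -0.18 and -0.20. The positive sodium family medians in the drug contrasts thus rest on 2 genes, of which Scn8a had the opposite sign without that array.

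In the calcium family, 3 of 7 pore-forming alpha subunit genes were past the filter. Cacna1c, the main L-type channel of brain and heart, had values of 7.01, 6.88 and 6.64 in the clozapine arrays, 6.88, 6.70 and 6.83 in the haloperidol arrays and 6.94, 6.91 and 7.00 in the control arrays. Its haloperidol arrays were all below its control arrays, and the clozapine arrays overlapped both, with differences of -0.10 ± 0.11 for clozapine minus control and -0.15 ± 0.11 for haloperidol minus control. Cacna1g, a T-type channel of thalamic burst firing, differed by -0.01 ± 0.18 and 0.02 ± 0.18. Cacna1e, an R-type channel, differed by 0.03 ± 0.07 and -0.05 ± 0.07.

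Of the auxiliary calcium subunits, Cacna2d3 had values of 8.12, 8.12 and 7.98 in the clozapine arrays, 8.09, 8.12 and 8.09 in the haloperidol arrays and 8.28, 8.23 and 8.12 in the control arrays. It belongs to the alpha2delta subunits, which bring calcium channels to the cell surface. Its haloperidol arrays were below all control arrays and its clozapine arrays reached the lowest control array, and the differences were -0.14 ± 0.08 for clozapine minus control and -0.11 ± 0.08 for haloperidol minus control. Cacna2d1, the subunit that binds gabapentin, had differences of -0.06 ± 0.22 and 0.13 ± 0.22, and without control 3 of -0.22 and -0.03. Cacnb2, a beta subunit, had the widest spread of the family, with values of 6.27, 5.46 and 5.71 in the clozapine arrays, 5.60, 5.75 and 6.46 in the haloperidol arrays and 6.19, 5.54 and 5.09 in the control arrays and differences of 0.21 ± 0.35 and 0.33 ± 0.35. Without control 3 these were -0.05 and 0.07, and without haloperidol 3 haloperidol minus control was 0.07. Cacng2 (stargazin), which carries AMPA receptors to synapses, differed by -0.14 ± 0.22 and -0.09 ± 0.22. Its haloperidol minus control difference was -0.37 without haloperidol 2 and 0.07 without haloperidol 3. Cacng1, best known from skeletal muscle, differed by -0.01 ± 0.09 and -0.14 ± 0.09.

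Clcn1 is best known as the chloride channel of skeletal muscle. Its probe set, 102622_r_at, was dim and by its ending did not meet all of the maker's usual design rules. It had values of 4.49, 4.71 and 4.55 in the clozapine arrays, 4.41, 4.27 and 4.13 in the haloperidol arrays and 4.53, 4.89 and 4.60 in the control arrays. The haloperidol arrays were below all other arrays, and the clozapine and control arrays overlapped. Haloperidol minus control was -0.41 ± 0.13, with a 95% interval from -0.70 to -0.12, an unadjusted p of 0.0116 and an adjusted p of 0.53 by limma. Clozapine minus haloperidol was 0.32 ± 0.13, with an interval from 0.03 to 0.61 and an adjusted p of 0.915 by limma. Clozapine minus control was -0.09 ± 0.13. Leaving out 1 array moved haloperidol minus control between -0.48 and -0.30, and without haloperidol 3 clozapine minus haloperidol was 0.25. Of the skeletal muscle markers, Acta1 alone was past the filter, at 4.34 to 4.68 over the 9 arrays, and its part in the Clcn1 values was not tested.

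The second Clcn1 probe set, 95376_at, had values of 3.75, 4.00 and 3.76 in the clozapine arrays, 3.65, 3.90 and 3.35 in the haloperidol arrays and 3.75, 3.75 and 4.05 in the control arrays. Its haloperidol minus control difference was -0.22 ± 0.16, of the same sign, and its groups overlapped. Dim probe sets were lower in haloperidol across the array. With a split at a log2 average of 5.5, a level chosen after the values were seen, 16 of the 19 dimmer channel genes past the filter were below 0 in haloperidol minus control and 6 of 19 did not overlap with control on the lower side (31.6%), against 71.9% below 0 and 43.4% not overlapping among all tested probe sets under that level. Among the 21 brighter channel genes, 8 were below 0 and 2 did not overlap (9.52%), against 42.1% and 4.24% of all tested probe sets above it.

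Clcn3, an exchanger of endosomes and synaptic vesicles whose loss leads to degeneration of the hippocampus in mice, was measured by 4 probe sets past the filter. The brightest, 102786_at, had values of 10.21, 10.19 and 10.57 in the clozapine arrays, 10.50, 10.11 and 10.32 in the haloperidol arrays and 10.38, 10.35 and 10.30 in the control arrays, with differences of -0.01 ± 0.13 for clozapine minus control and -0.03 ± 0.13 for haloperidol minus control. Probe set 94465_g_at had values of 9.13, 9.14 and 8.88 in the clozapine arrays, 9.00, 9.60 and 9.06 in the haloperidol arrays and 8.67, 8.65 and 8.61 in the control arrays. All 6 drug-treated arrays were above all 3 control arrays on it. Over all tested probe sets, the clozapine arrays lay above the control arrays for 1.27% and the haloperidol arrays for 2.29%.

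For 94465_g_at the differences were 0.40 ± 0.16 and 0.58 ± 0.16, with unadjusted p-values of 0.0366 and 0.00721 and adjusted p-values of 1.0 and 0.53 by limma. Probe set 94464_at had values of 9.37, 9.38 and 9.65 in the clozapine arrays, 9.53, 10.15 and 9.50 in the haloperidol arrays and 8.98, 9.15 and 9.61 in the control arrays, with differences of 0.22 ± 0.22 and 0.48 ± 0.22. Probe set 94463_at gave 0.26 ± 0.50 and 0.34 ± 0.50, with wide spread in all groups. All but the brightest of the 4 probe sets were above 0 in both drug contrasts. Of the other exchangers, Clcn4 differed by 0.02 ± 0.12 and 0.05 ± 0.12, Clcn5 by -0.04 ± 0.11 and -0.13 ± 0.11, and the lysosomal Clcn7 by 0.01 ± 0.23 and 0.06 ± 0.23, which were -0.20 and -0.15 without control 3.

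**Figure D4:**
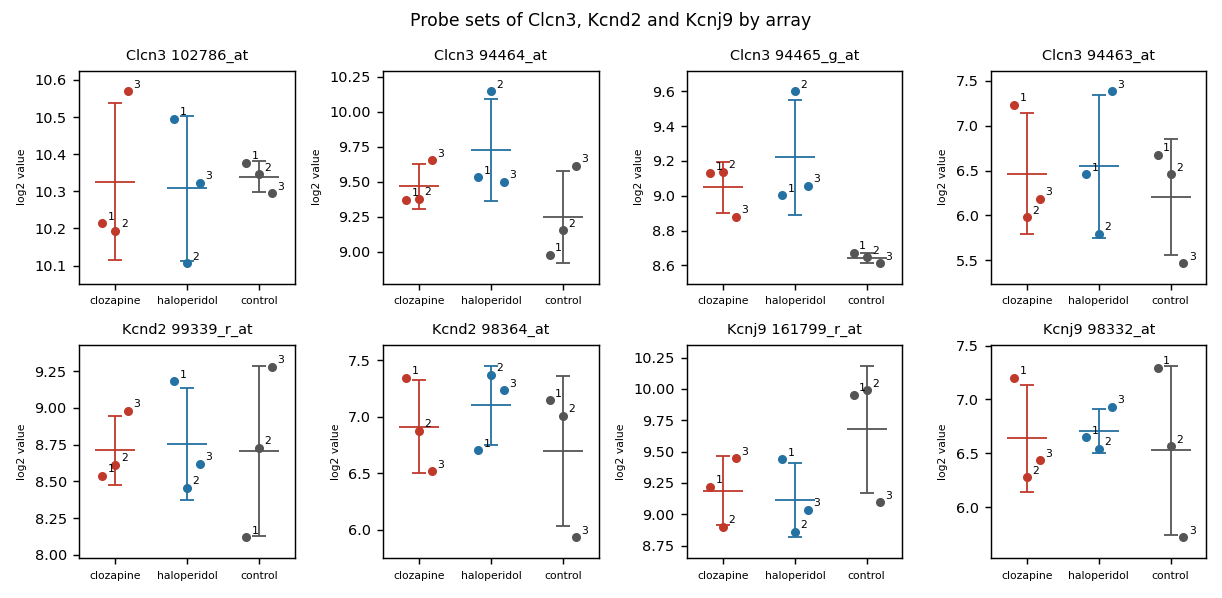
Log2 values by array (points, numbered by replicate) for the 4 probe sets of Clcn3 and the 2 each of Kcnd2 and Kcnj9, with group mean (long bar) and SD (short bars, n = 3), each panel on its own scale. All 6 drug-treated arrays lie above the control arrays for Clcn3 94465_g_at and not for Clcn3 102786_at, and control 3 changes place between the probe sets of Kcnd2.

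Of the 10 channel genes with several probe sets past the filter, the probe sets had the same sign in 5 genes for clozapine minus control, in 6 for haloperidol minus control and in 7 for clozapine minus haloperidol. Scn1a, Clcn1, Clcn7 and Kcnd2 held 1 sign across their probe sets in each of the contrasts. For Kcnd2 the shared sign says little. Its probe sets gave 0.0021 and 0.22 for clozapine minus control and 0.04 and 0.41 for haloperidol minus control. Kcnab2, Kcnj9 and Clcn3 did not hold 1 sign in either drug contrast, and Kcnab1 did not in haloperidol minus control or in clozapine minus haloperidol.

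The 28 genes below the filter include well known forebrain channels. Kcnc1, the fast delayed rectifier of interneurons, averaged 2.55, Kcnj6, the partner of Kcnj9 in G-protein-gated channels, averaged 3.37, and Cacna1b, the N-type channel of presynaptic terminals, averaged 1.67. Clcn2, a chloride channel of glia and neurons, averaged 2.39. For these 28 genes the range over the 9 arrays had a median of 0.26 and lay between 0.09 and 0.59. Clozapine 2 was the highest array for 25 of them (89.3%) and haloperidol 3 the lowest for 25 (89.3%), against 86.0% and 89.8% of all probe sets below the filter. Below the filter the channel genes moved with the arrays as a whole, and no difference between treatments is read from them. The remaining genes of this set were Kcna7, Kcnd1, Kcnd3, Kcne1, Kcne1l, Kcnj1, Kcnj2, Kcnj5, Kcnj11, Kcnj15, Kcnk3, Kcnk7, Kcnmb1, Kcnn4, Kcnq1, Kcnu1, Hcn3, Scn3a, Scn7a, Scn9a, Scn10a, Cacna1a, Cacna1h and Cacna1s.

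**Figure D5:**
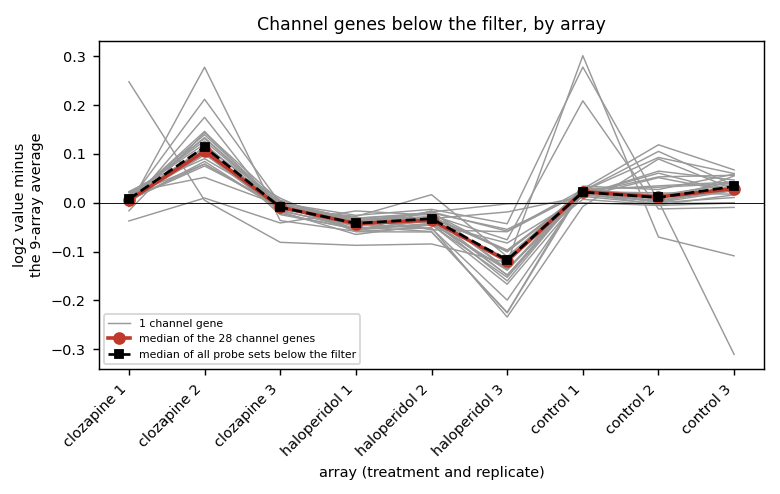
Log2 value minus the gene's 9-array average (y axis) by array (x axis) for the 28 channel genes below the filter (grey lines), with their median (circles) and the median of all probe sets below the filter (squares). Both medians peak at clozapine 2 and are lowest at haloperidol 3.

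Among the 40 genes past the filter, control 3 was the lowest array for 8 (Cacna2d1, Cacnb2, Clcn7, Kcna6, Kcnab2, Kcnj4, Kcns1 and Scn8a) and the highest for 1 (Kcnd2). The 8 genes are 20.0% of the 40, and over all tested probe sets control 3 was the lowest for 22.4% and the highest for 13.4%. Haloperidol 3, the array with pituitary transcripts, was the lowest for 6 of the 40 genes (15.0%), among them Clcn1 and Kcnj8, and for 22.7% of all tested probe sets. With 40 genes, nothing particular to the channel genes is read from these shares. Without haloperidol 3, haloperidol minus control was -0.14 for Kcnj8 and -0.34 for Clcn1. The 3′ to 5′ gap entered an alternative fit as a covariate. In that fit Kcnd2, Kcnma1 and Kcns2 had an unadjusted p under 0.05 by limma in both drug contrasts. Over all 7453 probe sets, 357 did so in clozapine minus control and 636 in haloperidol minus control. There 0 channel genes passed the adjusted threshold. The part that the gap, the neuron markers and the pituitary transcripts have in the channel values was not tested further.

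Genes that work with channels were read from 2 lists. Of 27 channel partners (scaffolds, ankyrins, fibroblast growth factor homologous factors, calmodulins and release proteins), 15 were tested and 0 passed the adjusted threshold of limma in any contrast, with 1 at an unadjusted p under 0.05 in haloperidol minus control and 0 in the other contrasts, beside 9.12% of all tested probe sets in haloperidol minus control. The list medians were 0.07 for clozapine minus control, 0.16 for haloperidol minus control and -0.04 for the drugs against each other, with 10, 10 and 7 of 15 above 0. Over all tested probe sets the medians were -0.0013, -0.02 and 0.03, with 49.5%, 46.4% and 56.4% above 0. Fgf12, which binds sodium channel alpha subunits and was picked out after its values were seen, averaged 7.50 in haloperidol and 7.21 in control, a difference of 0.29 ± 0.10 (SE) with an adjusted p of 0.53 by limma. Of 20 ion pumps and exchangers, 10 were tested and 0 passed, with the same unadjusted counts (backgrounds of 0.939%, 9.12% and 3.64%) and with medians of 0.01, -0.03 and 0.08, beside the medians over all probe sets just given. Slc8a1, the sodium and calcium exchanger, picked out in the same way, averaged 7.68 in haloperidol and 7.34 in control, a difference of 0.34 ± 0.13 (SE) with an adjusted p of 0.53 by limma.

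Promoter sequence is given for 3 members as examples, picked with their values known. The probe sets that stand for these genes had differences below 0 in both drug contrasts, which the second Kcnj9 probe set did not. Other members, Hcn2 among them, were also below 0 in both. The examples do not stand for the channel promoters as a whole. The RefSeq table of GRCm38.p6 held a promoter for 53 of the 68 genes, 70 promoters in all. The 250 bases before each start are given 5′ to 3′ on the gene's strand, in lower case with capitals for matches on either strand to TATAAA (the TATA box) or GGGCGG (the GC box, CCGCCC on the opposite strand). They lie at chr1:172329323-172329572 on the minus strand for Kcnj9, at chr6:42286435-42286684 on the plus strand for Clcn1 and at chr14:29721865-29722114 on the minus strand for Cacna2d3.
Kcnj9: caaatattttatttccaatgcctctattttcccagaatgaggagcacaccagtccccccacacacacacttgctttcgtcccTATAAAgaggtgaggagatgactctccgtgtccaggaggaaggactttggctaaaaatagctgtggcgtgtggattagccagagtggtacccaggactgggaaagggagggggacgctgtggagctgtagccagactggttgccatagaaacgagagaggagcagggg
Clcn1: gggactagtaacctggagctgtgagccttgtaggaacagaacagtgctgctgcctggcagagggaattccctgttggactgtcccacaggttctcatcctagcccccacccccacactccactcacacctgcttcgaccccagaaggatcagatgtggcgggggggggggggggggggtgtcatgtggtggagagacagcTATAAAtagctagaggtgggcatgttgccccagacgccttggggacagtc
Cacna2d3: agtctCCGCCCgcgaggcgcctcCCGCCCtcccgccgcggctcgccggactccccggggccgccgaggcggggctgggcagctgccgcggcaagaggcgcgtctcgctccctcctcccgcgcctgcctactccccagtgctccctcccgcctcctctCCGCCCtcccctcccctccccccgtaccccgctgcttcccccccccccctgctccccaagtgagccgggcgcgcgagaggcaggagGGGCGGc

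Kcnj9 and Clcn1 each had 1 TATA box match and 0 GC box matches in this window, with 5 and 3 CG dinucleotides, whereas Cacna2d3 had 4 GC box matches, 0 TATA box matches and 30 CG dinucleotides. In the 300-base windows of the table, which also hold the first 50 transcribed bases, a GC box was present in 50.0% of the 70 channel promoters, 47.1% of those of genes past the filter and 57.9% of those below it, against 35.7% of all 32851 promoters. TATAAA was present in 7.14% of the channel promoters and in 13.6% of all. TGACGTCA, the cAMP response element, was present in 2.86% and in 1.79%. The median number of CG dinucleotides was 11 in channel promoters and 7 in all. A gene with several starts counts once for each, and a match describes the letters in the window alone.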

How the data were processed

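The deposited table holds log2 probe set values of 9 arrays, which the authors produced with GCRMA according to the processing notes of the submitters; that method corrects background, normalises the arrays and summarises the probes of a set. The GCRMA version is not given in the sources used here. Arrays were assigned to groups by their titles. Symbols came from the platform annotation, and all 68 were found in the RefSeq table of GRCm38.p6. Limma 3.58.1 in R 4.3.3 fitted 1 mean per treatment to all 9 arrays (6 residual degrees of freedom), with two-sided tests and Benjamini-Hochberg adjustment over 7453 probe sets at 0.05. The model was tested on simulated data. The smallest two-sided p an exact permutation test allows with groups of 3 is 0.1.

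The channel genes, the partner lists and the alternatives were chosen with earlier results of these data known. The genes named were a fixed set, the 4 with the lowest p on each side of each contrast and the lowest F test p of each family, and other members were named to account for all. Alternatives covered the filter, a floor, scaling, the variance prior, array weights, the arrays in the fit, the replicate number, RNA quality and single arrays.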

Additional observations from a re-analysis of the deposited data

Results flagged for a closer look

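The Clcn3 probe set 94465_g_at does not represent its gene, because probe set 102786_at is brighter, and it showed a signal that the brighter one did not. Its clozapine arrays were at 9.13, 9.14 and 8.88, its haloperidol arrays at 9.00, 9.60 and 9.06 and its control arrays at 8.67, 8.65 and 8.61. The difference was 0.40 for clozapine minus control and 0.58 for haloperidol minus control, higher in 3 of 3 arrays of each drug than in any control array. Over all tested probe sets, 1.27% were so placed for clozapine and 2.29% for haloperidol. The unadjusted p of 94465_g_at by limma was under 0.05 in 13 of 20 alternatives for clozapine minus control and in 20 of 20 for haloperidol minus control. These counts use the arrays by which the probe set was picked, so they are no separate support. The adjusted p by limma was at or above 0.0632 in all of the haloperidol alternatives, and the probe set was singled out after its values were seen.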

How the results depend on the processing

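Under each of 21 alternatives per contrast, 0 probe sets and 0 channel genes passed the adjusted threshold, with the lowest adjusted p 0.0632, under array weights in haloperidol minus control, whose weight estimation stopped before it converged. The median difference of the channel genes moved by more than its own spread between arrays of 1 group (SD 0.0216, from the median deviation of these genes in each array) under some of them. For clozapine minus control, leaving out 1 array gave -0.0203 (without control 3) to 0.0226 (without control 1). For haloperidol minus control, -0.03 as reported, it was 0.0449 with the filter at the 60th percentile, 0.0762 with arrays centred, 0.0243 after quantile normalization, -0.0945 with the 3′ to 5′ gap as a covariate, and -0.0749 without control 3 and haloperidol 3, and leaving out 1 array gave -0.0927 (without control 3) to -0.0089. For clozapine minus haloperidol, 0.03 as reported, it was -0.0239 with the 60th percentile filter, -0.0653 with arrays centred and -0.0038 after quantile normalization, and leaving out 1 array gave 0.03 to 0.05. The 60th percentile medians are over fewer and brighter genes than the reported ones. The cause of the other shifts was not tested.

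Unadjusted counts over all probe sets ranged from 36 to 926 for clozapine minus control (70 as reported), from 161 to 1944 for haloperidol minus control (680) and from 30 to 2061 for clozapine minus haloperidol (271), the last 2 highest with no filter. The numbers tested differ, so these counts are not on 1 base. The counts of 36 and 30 are of 4969 probe sets, with the 60th percentile filter. Those of 1944 and 2061 are of 12422, and the reported fit tested 7453. With the replicate number as a block, 0 probe sets were called and the unadjusted counts were 60, 665 and 333. Each number occurs once in each treatment, so this block cannot change a difference. The channel medians of -0.0031, -0.03 and 0.03 were therefore the same by design. The deviations of same-numbered arrays correlated between -0.597 and 0.697. Differently numbered arrays were not compared, so these values cannot tell whether the numbers pair the samples. Signal over background limits the 28 genes below the filter, whose differences follow the arrays.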
